A study of Mus musculus with 122 samples.

Results

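Shared promoter sites were 2127 stretches of the mouse genome, each near a gene start, where a FLAG-tagged CTCF transgene and a FLAG-tagged CTCFL transgene both gave a ChIP-seq peak. They were chosen by measured values. FLAG peaks of both replicates were merged where they overlapped by at least 1 bp, and a merged region on chromosomes 1 to 19 and X was kept as a site if both replicates held a peak in it. This gave 30317 CTCF sites from cells given IAA and Dox (ID) and 22294 CTCFL sites from cells given Dox alone (D). A CTCF site was taken as a member when a CTCFL site overlapped it by at least 1 bp and its middle lay within 1 kb of one of 75453 start sites of annotated genes (GENCODE, GRCm38). Members were 7.02% of the CTCF sites, and 2424 of 53734 annotated genes had a start site within reach of one. Since the CTCF ID and CTCFL D peaks made the choice, their values are given as a description, and tests were run on RNA, on RAD21 and on other FLAG libraries.

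All cells were E14Tg2a mouse embryonic stem cells (129/Ola, XY) in which both Ctcf alleles carry an auxin-inducible degron with eGFP and TIR1 is expressed from Rosa26, so that the auxin IAA (500 μM) leads to degradation of endogenous CTCF. Each line also carried a Dox-inducible transgene (1 μg/ml Dox) at the Tigre locus with a FLAG tag and mRuby2, and each line was a selected clone. The transgenes encoded CTCF, CTCFL or chimeras of both, named by the source of the N terminus, zinc fingers and C terminus: in LCL the zinc fingers are those of CTCF between CTCFL ends, and in CLC they are those of CTCFL between CTCF ends. The conditions were no treatment (U), IAA alone (I), Dox alone (D) and IAA with Dox (ID), so the degron and the uninduced transgene were present in the controls too. RNA-seq held 11 libraries of the CTCFL line (3 U, 3 I, 3 D and 2 ID), 11 of the CTCF line (2 U, 3 I, 3 D and 3 ID) and 8 each of the LCL and CLC lines (2 per condition). The names of the LCL and CLC RNA libraries carry the tag 2i, which those of the CTCF and CTCFL lines lack. The paper gives the same medium, with serum, LIF and a MEK inhibitor, for all clones. Whether the media differed could not be settled. According to the treatment protocol, RNA and ChIP samples had 2 days of treatment and Hi-C samples 4. The time point in the sample labels is 24 h for most samples, 48 h for some FLAG samples and 4 days for the CLL Hi-C samples. Untreated and IgG samples carry none. The difference between the labels of 24 h and the protocol could not be settled. Whole reads recovered from the RNA values of 36 libraries ranged from 6847072 per library (CTCFL line, D, replicate 3) to 49716771, with a median of 26013021. Peak lists hold no reads, so the depth of the ChIP-seq libraries is unknown. The labels do not say that replicates were separate cultures, so p-values measure the spread between these samples, which may be technical.

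CTCF is a DNA-binding protein with an array of zinc fingers that each read a few bases of a long motif. It halts the loop-extruding cohesin ring, of which RAD21 is a subunit, and so marks the borders of chromatin domains. CTCF also sits at many gene starts, where its effect on transcription is less well understood. CTCFL, also called BORIS, is a paralog with similar zinc fingers and unrelated ends that is normally made in the male germ line and is switched on in some cancers. It was brought here into cells that do not normally make it at a high level.

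Sequences of 30 bases from 12 member sites are shown first because the genes beside them carry the RNA results below. Each was read from GRCm38 (RefSeq assembly GRCm38.p6) around the occurrence closest to the CTCF summit of the pattern CCNNNAGNNGGC, which spells the core of the CTCF motif, on the strand where it reads in this direction. Capitals mark the 12 bases of the match. The first 7 belong to genes whose RNA was lower in depleted cells and higher in depleted cells with CTCFL.
Sorcs2, chr5:36398194-36398223, minus strand: tgcgcgcggCCGGCAGGTGGCggtgctccc
Nudt17, chr3:96708557-96708586, minus strand: cgagctgggCCACCAGGGGGCgccaggcaa
Apba2, chr7:64501606-64501635, plus strand: ctccggagcCCGCCAGGGGGCagcgcggcg
Itga9, chr9:118606613-118606642, plus strand: agaccgcgtCCAGCAGGGGGCgctgcggac
Pxylp1, chr9:96889534-96889563, plus strand: gagctccgcCCCGCAGGCGGCcgtgcggga
Adprhl2, chr4:126321739-126321768, minus strand: gactccgggCCACAAGGGGGCgctgtgggg
Tgm2, chr2:158146477-158146506, minus strand: gtcctgtgtCCAGCAGGGGGCgctcccggc
The next 3 belong to genes that were low in the untreated CTCFL line and higher with CTCFL.
Hic1, chr11:75169207-75169236, minus strand: cccgcgtggCCGCGAGGTGGCgccatggcc
Ly6k, chr15:74799857-74799886, minus strand: caacggcacCCTGTAGGGGGCagtgtggga
B3gat2, chr1:23762943-23762972, plus strand: caacaccttCCGCCAGGTGGCgcagttgca
The last belong to Ocel1, which was higher without CTCF, and to Fosb, which was lower with CTCFL.
Ocel1, chr8:71371760-71371789, plus strand: cgcgccctgCCGCCAGGGGGCgccagagag
Fosb, chr7:19310470-19310499, plus strand: gcctaaactCCCTCAGAAGGCccctgctga
The third base of the match was A in some of these stretches and G, C or T in others.

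The pattern was found within 150 bp of the CTCF summit (the CTCFL summit for sites without CTCF), on either strand, in 1240 shared promoter sites (58.3%). The share was 40.9% among 941 CTCF promoter sites without a CTCFL site (CTCF-only), 19.8% among 3564 CTCFL promoter sites without a CTCF site (CTCFL-only) and 67.8% among 12040 shared sites away from gene starts. Of 32585 RefSeq promoters of 300 bases, 8.67% held it. In 90 shared promoter sites (4.23%) there were matches at separate places, and the share was 3.65% at shared sites away from gene starts, 1.38% at CTCF-only and 1.37% at CTCFL-only promoter sites and 0.516% over all promoters. Base composition differed between these sets, with a median GC content of 56.7% at shared, 48.3% at CTCF-only and 61.0% at CTCFL-only promoter sites and 53% over all promoters. A match is a description of the letters and not of binding.

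Of the free places of the pattern, the third was compared between the sets. The third base of the match was A in 52.8% of matches at shared promoter sites, in 82.2% at CTCF-only promoter sites and in 77.0% at shared sites away from gene starts. It was G in 25.5%, 6.02% and 5.61% of them. At CTCFL-only promoter sites it was A in 24.8% and G in 27.2% of matches, and over all promoters A in 26.5% and G in 24.7%. The share of A at shared promoter sites thus lay between those of CTCF-only sites and of all promoters, and the share of G was near that of all promoters. The shared promoter sites held 243 different matches of 12 bases, and the commonest, CCAGAAGAGGGC, was found at 99 of them (7.98% of sites with a match). The same letters were found at 27.3% of the CTCF-only promoter sites with a match. Matches lay in annotated repeats at 12% of shared, 39% of CTCF-only and 5.39% of CTCFL-only promoter sites with one. The match at a shared promoter site lay a median of 29 bp from the CTCF summit and read on the same strand as the nearest gene in 697 sites (56.2%).

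The peaks that defined the members were stronger for CTCF than for CTCFL at most of them. The median −log10 q of the CTCF ID peaks was 53.2 and 40.8 in the 2 replicates, and that of the CTCFL D peaks was 28.7 and 20.6. It was higher for CTCF in both replicates at 1485 sites and for CTCFL in both at 433. CTCF peaks at CTCF-only promoter sites had medians of 29.5 and 18.1, and CTCFL peaks at CTCFL-only promoter sites had medians of 11.5 and 7.01. The summits of both proteins were close, a median of 47 bp apart and within 50 bp at 1122 sites (52.8%).

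Members made up 69.3% of the 3068 CTCF ID sites near a gene start, while 44.2% of the 27249 CTCF sites elsewhere overlapped a CTCFL site. Their middles lay upstream of the nearest start in 1394 and at or downstream of it in 733, a median of 227 bp away. Within 100 bp of a start were 590, and within 250 bp were 1106. Most served 1 gene (1817 sites), 292 served 2, and 65 had within 1 kb the starts of divergent protein-coding genes at most 1 kb apart. Among their genes, 1664 were protein-coding, 206 were lincRNAs and 157 were antisense genes. The farthest member lay 995 bp from a start and the nearest site left out lay at 1002 bp, while the smallest overlap inside was 26 bp and the closest CTCF-only site missed a CTCFL site by 5 bp. Of the CTCF-only promoter sites, 301 had a CTCFL D peak in 1 replicate, so the border with the members is not sharp.

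The 10 strongest members, ranked by the lowest −log10 q over the 4 libraries, started with Rapgef1, which encodes an exchange factor for the small GTPase Rap1. Its site at chr2:29619102-29620068 had −log10 q values of 152.1 and 145.2 for CTCF and 109.3 and 100.4 for CTCFL. After it came sites of Tgm2 (chr2:158146053-158147010, a transglutaminase), Dtl and Ints7 (chr1:191575443-191576420, a ubiquitin ligase subunit and an Integrator subunit that share the site), Dnajc11 (chr4:151932982-151934166), Med4 (chr14:73509375-73510385, a Mediator subunit) and Cacnb3 (chr15:98631114-98632129, a calcium channel subunit). The others were Sh3glb1 (chr3:144720158-144721165), Kdm3b (a histone demethylase), Adprhl2 (chr4:126321241-126322273, a hydrolase that removes ADP-ribose) and Prss48 (chr3:86002102-86003172, a serine protease). Rapgef1 RNA stood at 2802, 2881 and 3020.2 in the U libraries of the CTCFL line and at 3699, 3921 and 3382 in D, so that all D libraries lay above all U libraries, with a log2 difference of 0.34 ± 0.08 (adjusted p = 0.00177) that is short of the threshold for a call. It was not called in any other comparison of that line or in I against U of the CTCF line. Ctcf itself was a member, with a site at chr8:105636717-105637285 inside the gene, 422 bp downstream of its start.

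FLAG libraries that the choice did not use were examined for peaks at the same places. CTCF from cells with Dox alone had peaks at 99.5% of members on average (99.2% and 99.8%), and CTCFL from depleted cells at 98.0% (98.0% and 98.1%). CTCFL in depleted cells also had peaks at 76.4% of CTCFL-only promoter sites. At CTCF-only promoter sites its libraries had peaks at 33.4% and 26.6%, so part of these sites were not free of CTCFL in ID. CTCF from cells with Dox alone had peaks at 18.9% and 42.9% of CTCFL-only promoter sites. The chimera with CTCF zinc fingers, LCL, was found at 97.6% of members in D and 98.5% in ID, and at 76.0% and 79.6% of CTCF-only sites. The chimera with CTCFL zinc fingers, CLC, was found at 43% (35.8% and 50.2%) of members in D and at 88.6% (87.7% and 89.6%) in ID. LCL was thus near saturation in both conditions, while both CLC libraries of ID stood above both of D, in which endogenous CTCF was present. CLL reached 23.5% in D (1.41% and 45.7%) and 79.8% in ID (70.9% and 88.6%), and LLC reached 5.31% and 24.3%. Shared sites away from gene starts had like shares in D and ID. They were 92.5% and 93.9% for LCL, 38.9% and 88.8% for CLC, 19.5% and 77.9% for CLL and 5.18% and 20.1% for LLC. The coverage by chimeras was thus not particular to shared sites at promoters. The chimera libraries listed from 2233 to 60799 peaks, and a library with few peaks can cover few sites.

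Over the 16 chimera libraries, a mean of 57.6% of members were covered, against 23.6% of CTCF-only and 21.3% of CTCFL-only promoter sites. Within a library, members exceeded CTCF-only sites by 34 percentage points (SD 25.3, higher in 16 of 16 libraries, two-sided exact sign-flip permutation test, p = 3.05e-05, the smallest it can give, adjusted p = 4.58e-05 over 3 tests). The test took each library as independent, while replicates and conditions of a line share a clone, so p does not measure the spread between lines. Members exceeded CTCFL-only sites by 36.3 points (SD 20.8, 16 of 16, same p). Members were chosen for peaks of both proteins, and each chimera carries the zinc fingers of CTCF or of CTCFL. The choice itself thus favoured members in both contrasts. CTCFL peaks were also stronger at members than at CTCFL-only sites, and that contrast was not split by CTCFL strength. With the 2233 top-ranked peaks of every library, the difference from CTCF-only sites was 17.5 points. Members have stronger CTCF peaks than CTCF-only sites, so the shares were also taken within 4 classes of the sites by CTCF strength. From the weakest to the strongest class, members were covered in 46.1%, 52.2%, 59.0% and 67.5% and CTCF-only sites in 18.8%, 22.7%, 27.3% and 35.1%. In each class the mean share was higher at members, in 16 of 16 libraries except in the strongest class, where it was 14 of 16.

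**Figure D1:**
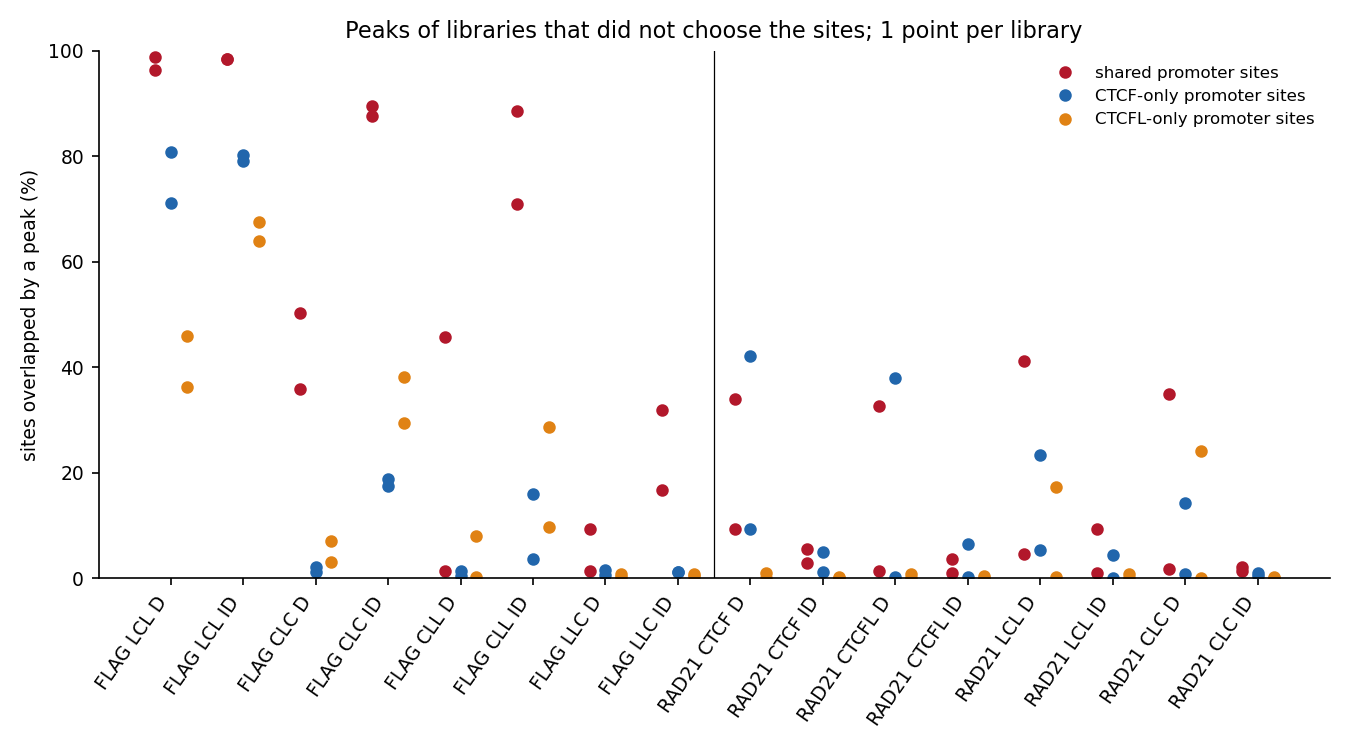
Percent of shared, CTCF-only and CTCFL-only promoter sites (vertical axis, linear) overlapped by a peak in each library of the chimeras (FLAG) and of RAD21, with 1 point per library, grouped by line and condition (D or ID). LCL points lie near the top for shared sites in D and ID, CLC points rise from D (35.8% and 50.2%) to ID (87.7% and 89.6%), and RAD21 points spread widely within a condition.

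RNase treatment before ChIP and mock treatment were set side by side at the members. CTCF covered 81.8% and 43.9% of them after RNase and 78.8% and 82.7% after mock treatment, and CTCFL covered 62.6% and 33.7% after RNase and 30.3% and 58.3% after mock. The groups overlapped for both proteins, and with 2 libraries against 2 an exact permutation test cannot go below p = 0.333. The lowest RNase library of each protein was the second replicate, which listed fewer peaks (8740 for CTCF and 2556 for CTCFL).

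The share of members with a RAD21 peak varied widely between libraries. On average over 16 libraries, RAD21 peaks overlapped 11.7% of shared and 9.52% of CTCF-only promoter sites, a difference of 2.15 points (SD 7.38, higher in 12 of 16 libraries, two-sided exact sign-flip permutation test, p = 0.312). Here too each library was taken as independent, so the p-values do not measure the spread between lines. The mean share at members was 20% over the 8 D libraries and 3.36% over the 8 ID libraries. Replicates of RAD21 stood far apart: in D of the CTCFL line, replicate 1 listed 20467 peaks and covered 32.6% of members, and replicate 2 listed 238 and covered 1.41%. With all peaks of replicate 2 of every condition alone, the difference was 5.6 points (exact permutation test, p = 0.00781), and with replicate 1 alone it was −1.30 points (p = 0.422). With all peaks the direction thus depends on which replicates are used. The library with more peaks in D covered 33.9% of shared and 42.1% of CTCF-only sites in the CTCF line and 32.6% and 38% in the CTCFL line, but 41.2% and 23.3% in the LCL line and 35% and 14.2% in the CLC line. Shared sites were thus the lower in the CTCF and CTCFL lines and the higher in the LCL and CLC lines, where these libraries also covered 17.3% and 24.1% of CTCFL-only sites. Within the strongest of 4 classes by CTCF peak, RAD21 covered 17.2% of members and 27.4% of CTCF-only sites, and members stood higher in 2 of 16 libraries. Within the weakest it covered 6.40% and 3.90%, and members stood higher in 14 of 16. No RAD21 peak was listed at 770 members in any library, and 18 had one in all 16.

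Domain borders from Hi-C were set beside the sites as a further description. Of 12 lists per method, each for 1 line and condition, the crane lists had a border within 40 kb of a median of 18.3% of members (at least 17.6%), against 19.5% of all gene starts. The hicratio lists had one near 28.6% of members (22.8% to 31.5%), 29.2% of CTCF-only sites and 20.1% of all gene starts (17.5% to 21.1%). The methods thus placed the members differently against gene starts in general.

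RNA-seq values are gene counts divided by a size factor per library (normalised read counts). Of the 2424 member genes, 2245 were in the RNA table, and 1622 of them (72.2%) passed a minimum mean of 10 in the CTCFL line and 1609 (71.7%) in the CTCF line, against 32.1% and 31.8% of all genes listed. The counts below cover only these genes, which a gene may have passed through the condition in which it was high. Genes were tested with limma on log2(value + 1), with p adjusted over all genes of the line (Benjamini-Hochberg), and called when the adjusted p was below 0.01 and the log2 fold change beyond 1. Fold changes of low genes are understated on this scale, and ± gives the standard error of the fit. In bulk RNA, fewer cells of a type and less RNA per cell cannot be told apart.

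The transgene was read first. Ctcfl RNA in the CTCFL line stood at 193, 225 and 206 in U and 221, 203 and 177 in I, and at 7764, 9398 and 7569.5 in D and 5572 and 5455 in ID. All libraries with Dox were far above all without it. Ctcf RNA in the CTCF line stood at 4712 and 4691 in U and at 3845, 3849.9 and 3549.7 in the libraries labelled D, and at 4622, 4371 and 4231 in I and 3909.8, 4137 and 4142 in those labelled ID. Ctcf RNA was therefore not higher in the libraries of the CTCF line labelled with Dox, and their labels have no such check, although the FLAG peaks of this line come from cells with the same labels. The paper shows the FLAG-tagged CTCF protein in D and ID by western blot. In ID against I of this line, 88 members were called higher and 42 lower. Whether labels were mixed was not tested. IAA acts on the protein, so Ctcf RNA does not test depletion. Stra8, a meiotic gene that is a known target of CTCFL and here no member, changed by a log2 fold change of 1.58 ± 0.06 in D against U of the CTCFL line.

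After depletion of CTCF, more member genes were lower than higher in RNA. In I against U of the CTCF line, 185 of 1609 members were called lower (11.5%, against 5.92% of all 16705 genes tested) and 80 higher (4.97%, against 5.00%). In the CTCFL line without Dox, 176 of 1622 were called lower (10.9%, against 5.88% of 16840) and 83 higher (5.12%, against 3.69%). The LCL line had 161 lower (10.6%, against 5.34%) and 73 higher (4.80%, against 4.25%), and the CLC line 161 lower (10.8%, against 6.10%) and 113 higher (7.56%, against 6.70%). CTCF-only promoter sites had nearly the same share of genes called lower in the CTCF line (10.6% of 348), so the excess was not particular to shared sites. Among protein-coding genes alone, 12.1% of members and 6.58% of all genes tested were called lower in the CTCF line.

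The lines share no libraries, and their calls could be set side by side. They differed in U, where primitive endoderm markers had median sums of 6812 (CTCFL line), 5924 (CTCF), 621 (LCL) and 611 (CLC). Clone and any difference in culture cannot be told apart. Of 1464 members tested in all 4 lines, 92 (6.28%) were called lower in each of them, against 383 of 14396 genes (2.66%), and 23 (1.57%) were called higher in each, against 0.882%. The difference in depletion between the CTCFL and CTCF lines passed the test for 3 members in the direction of the CTCFL line (background 0.280%) and for 2 in the other (0.0935%).

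Where CTCFL was induced in cells depleted of CTCF, many members were higher in RNA. In ID against I of the CTCFL line, 257 of 1622 members were called higher (15.8%, against 3.94% of all genes tested) and 35 lower (2.16%, against 3.89%). The median log2 fold change was 0.267 over members and −0.014 over all genes tested. At CTCF-only promoter sites 19 of 354 genes were called higher (5.37%), and at CTCFL-only promoter sites 167 of 3201 (5.22%). The CTCF-only sites were chosen by CTCFL peaks in D, and part of them had CTCFL peaks in ID. In the CTCF line, the same step gave 88 members higher (5.47%, against 1.76%) and 42 lower (2.61%, against 3.30%).

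With CTCF in place, fewer members were called after induction of CTCFL. In D against U of the CTCFL line, 137 members were called higher (8.45%, against 3.76%) and 26 lower (1.60%, against 2.14%), with a median of 0.147 over members and −0.003 over all genes. CTCFL-only promoter sites had 217 of 3201 genes called higher (6.78%) and CTCF-only sites 7 of 354. Dox in the CTCF line gave 4 members higher (0.249%, against 0.216%) and 1 lower (0.0622%, against 0.239%). These 5 calls became 0 without replicate 2 of U in the CTCF line, where 1 U library is left, 7 without replicate 2 of D and 3 with the replicate number as a block. Whether the response to CTCFL differs with CTCF present or depleted was tested within 1 fit as (ID − I) − (D − U). The response was larger in depleted cells for 96 members (5.92%, against 1.07%) and smaller for 30 (1.85%, against 1.64%).

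**Figure D2:**
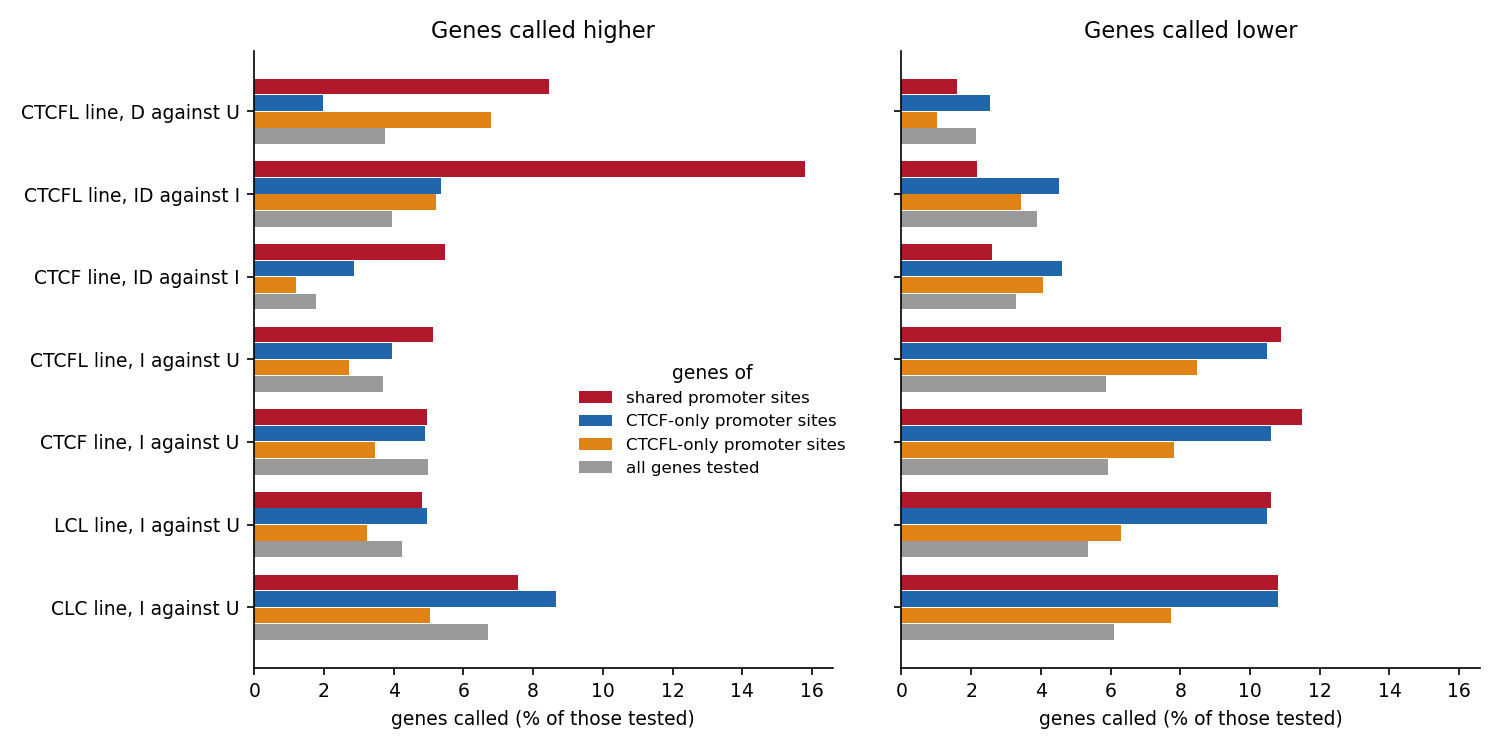
Percent of tested genes called higher (left panel) or lower (right panel) on a linear horizontal axis from 0, for 7 comparisons on the vertical axis, with bars for genes of shared, CTCF-only and CTCFL-only promoter sites and for all genes tested. Genes of shared sites stand highest in ID against I of the CTCFL line (15.8% called higher), and in I against U the shared and CTCF-only genes called lower are at about the same height (11.5% and 10.6% in the CTCF line).

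Since depletion in the CTCF line and induction in the CTCFL line share no libraries, their calls at the members could be compared. Of 183 members called lower in I against U of the CTCF line and tested in both lines, 110 (60.1%) were called higher in ID against I of the CTCFL line, and they made up 44.5% of the 247 members called higher there. Over all genes tested the figure was 169 of 974 (17.4%). Of the same 183 members, 35 (19.1%) were called higher in D against U, 26.7% of the 131 called higher there, against 68 of 974 (6.98%) over all genes. Of the 183, 3 (1.64%) were called lower in ID against I and 2 (1.09%) in D against U, where the shares over all genes were 12% and 3.70%. Of 80 members called higher on depletion, 9 (11.2%) were called higher and 5 (6.25%) lower in ID against I, against 5.80% and 6.05% over all genes, so the share lower was near that of all genes. In D against U, 17 of the 80 were called higher (21.2%), against 12.1% over all genes.

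**Figure D3:**
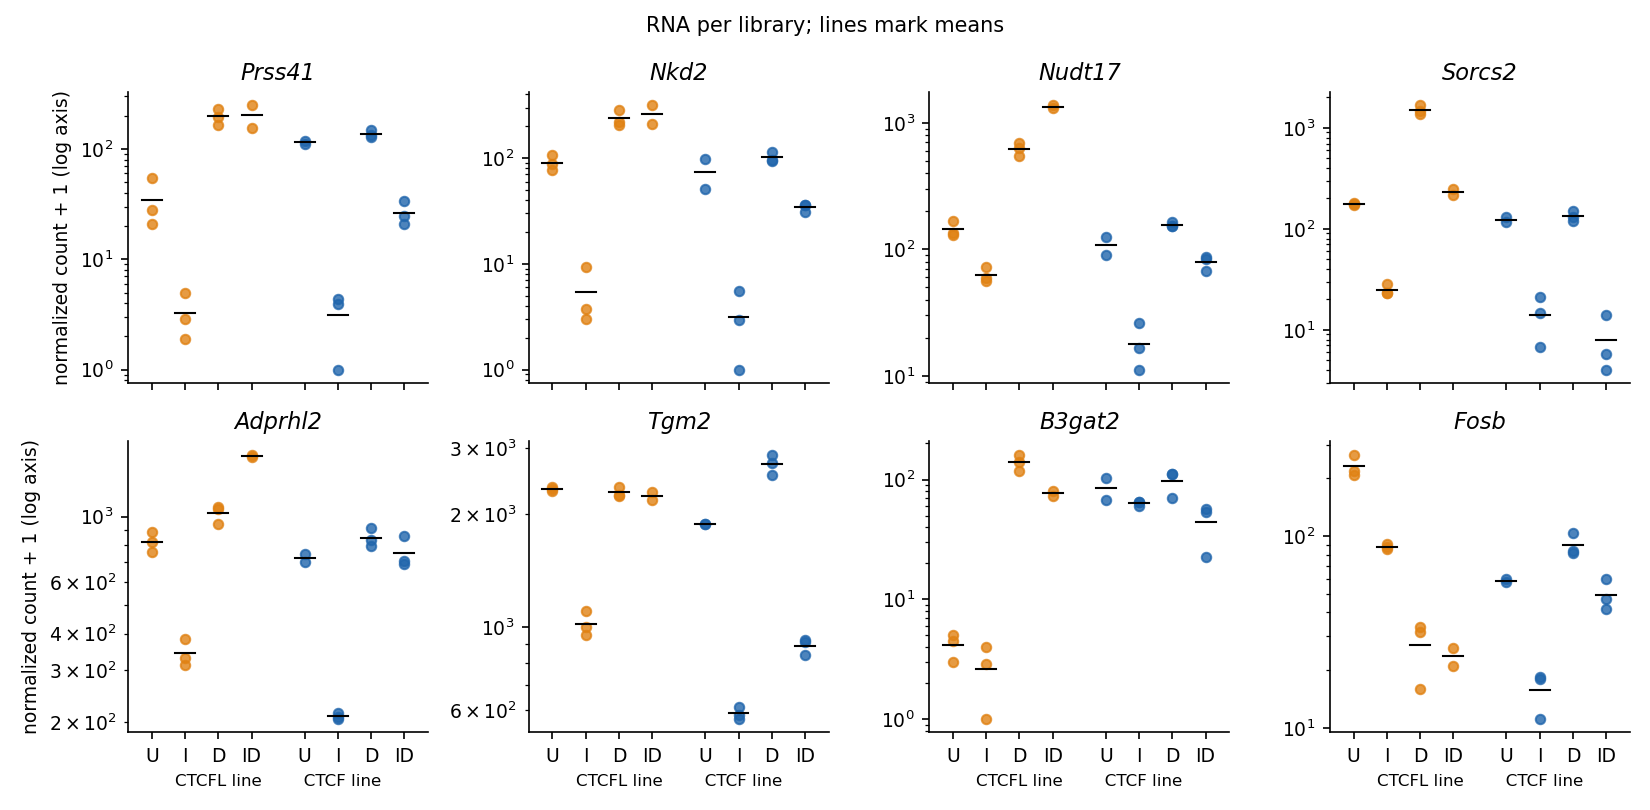
Normalised read counts plus 1 (vertical axis, log scale) of 8 member genes in every library of the CTCFL and CTCF lines, in the conditions U, I, D and ID, with lines at the group means. Prss41, Nkd2 and Nudt17 drop in I in both lines and stand above U in D and ID of the CTCFL line, and Fosb stands lower in D than in U of the CTCFL line alone.

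Prss41, which encodes a serine protease found in testis, was called both on depletion and on induction of CTCFL. Its stronger site lay 68 bp upstream of the start, at chr17:23843873-23844606. Its values in the CTCF line were 111 and 118 in U and 2.90, 3.41 and 0 in I. In the CTCFL line they were 26.9, 53.4 and 19.7 in U and 1.86, 3.99 and 0.910 in I, and at 164, 229 and 195 in D and 248 and 154 in ID. Each depleted library was below each untreated one and each CTCFL library above them all. The log2 fold change was −5.48 ± 0.51 (adjusted p = 1.74e-06) for depletion in the CTCF line, 6.03 ± 0.50 (adjusted p = 6.21e-09) for ID against I and 2.63 ± 0.45 (adjusted p = 9.71e-05) for D against U of the CTCFL line. In ID of the CTCF line its values were 32.5, 23.5 and 19.7, above all I and below all U libraries.

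Nkd2, an inhibitor of Wnt signalling, followed the same course with a site 153 bp upstream of its start (chr13:73847443-73848124). It stood at 86.2, 106 and 75.5 in U of the CTCFL line, 8.39, 2.00 and 2.72 in I, 219, 283 and 206 in D and 209.7 and 315 in ID. The I libraries were lowest and the D and ID libraries highest, with no overlap between Dox and no Dox. ID against I was a log2 fold change of 5.77 ± 0.42 (adjusted p = 7.51e-10), and it was larger than that of D against U by 4.38 ± 0.56 (adjusted p = 1.45e-05). The sites of Prss41 and Nkd2 were not among those with the 12-base pattern in the window.

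The site of Nudt17, a nudix hydrolase, had its middle 83 bp downstream of the start. It stood at 168, 128 and 134 in U and 58.8, 71.9 and 55.2 in I, and at 697, 628 and 547 in D and 1377 and 1305 in ID of the CTCFL line, and at 89.3 and 124 in U and 15.5, 10.2 and 25.1 in I of the CTCF line. The conditions did not overlap in the CTCFL line, and ID stood above D. The log2 fold change was 4.42 ± 0.18 (adjusted p = 2.13e-13) for ID against I and 2.12 ± 0.16 (adjusted p = 3.42e-09) for D against U, and the difference between them was 2.31 ± 0.25 (adjusted p = 1.69e-06). In the CTCF line the step from I to ID, with values of 66.3, 83.3 and 86.3 in ID, was 2.23 ± 0.27.

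Other members reached their highest level with CTCFL where CTCF was present. Sorcs2, a sortilin-family receptor, stood at 179, 174 and 172 in U and 22.4, 22 and 27.1 in I, and at 1675, 1467 and 1378 in D and 247 and 213 in ID of the CTCFL line. D was far above the other conditions, and ID stood just above U. The fold change was 3.09 ± 0.17 (adjusted p = 2.35e-11) for D against U and 3.22 ± 0.19 (adjusted p = 4.44e-11) for ID against I on the log2 scale, so that the step was of like size from a lower start. Sorcs2 in the CTCF line stood at 129.7 and 115 in U, 13.6, 5.68 and 20.1 in I and 4.82, 12.9 and 3.03 in ID, where the I and ID libraries overlapped.

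Apba2, an adaptor that binds the amyloid precursor protein, stood at 116, 94.9 and 69.7 in U and 10.3, 3.99 and 11.8 in I, and at 430.2, 565 and 393 in D and 110.3 and 59.3 in ID. Here too D was highest and ID overlapped U. Its fall in the CTCF line (−2.83 ± 0.48 (adjusted p = 3.62e-04)) was not called without replicate 2 of U (−2.35), where 1 U library is left and is taken to vary like the other groups of the fit. Kcnh1, a potassium channel, stood at 53.9, 66.2 and 84.8 in U and 5.59, 12 and 19 in I, and at 376, 361 and 345 in D and 37.1 and 29.1 in ID, so that D was highest and ID lay between I and U. Sorcs2, Apba2 and Kcnh1 were called lower on depletion in both lines.

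Pxylp1, a phosphatase that acts on the linker of proteoglycans, and Itga9, an integrin, were between these courses. Pxylp1 stood at 259.9, 268 and 194 in U and 59.7, 32.9 and 42.5 in I, and at 790.3, 993 and 779 in D and 479 and 448 in ID, and the response to CTCFL was larger in depleted cells by 1.55 ± 0.30 (adjusted p = 8.62e-04). Itga9 stood at 63.3, 54.4 and 45.3 in U and 15.8, 13 and 26.2 in I, and at 146, 235 and 169 in D and 61.1 and 50.3 in ID. In ID Pxylp1 was above U, and Itga9 overlapped U.

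A set of members fell on depletion, came back with CTCFL and hardly moved in D. Ppa2, the mitochondrial pyrophosphatase, with a site 106 bp upstream of its start (chr3:133309607-133310401), stood at 899, 828 and 838 in U and 73.7, 91.8 and 95.9 in I, and at 884, 869 and 974 in D and 603 and 596 in ID. U and D overlapped, ID lay below them and I was far lower. Its values in the CTCF line were 1090.0 and 793 in U, 62, 77.2 and 66.2 in I and 174, 224 and 210.4 in ID. ID against I was 2.78 ± 0.14 (adjusted p = 2.84e-12) with CTCFL and 1.55 ± 0.14 (adjusted p = 2.76e-06) in the CTCF line. Depletion in the LCL and CLC lines lowered it by −3.81 ± 0.13 and −3.72 ± 0.19.

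Dennd6b, which encodes a DENN-domain protein, behaved alike, at 345, 328 and 391 in U and 49.4, 43.9 and 40.7 in I, and at 529, 402 and 438 in D and 364 and 348 in ID. I was far lower than the rest, ID lay within the range of U, and D lay just above it. Adprhl2, among the strongest sites, stood at 882, 759 and 817 in U and 383, 313 and 329 in I, and at 940.2, 1064 and 1075 in D and 1622 and 1587 in ID, so that ID lay above all the others while D against U was not called (0.32 ± 0.10 (adjusted p = 0.0168)). Tgm2 stood at 2369, 2310.4 and 2332 in U and 1104, 950.1 and 998 in I, and at 2242, 2364 and 2258 in D and 2295 and 2183 in ID. U and D overlapped, ID lay just below U, and I lay far below all of them (−1.20 ± 0.07 (adjusted p = 3.46e-11) for I against U and 1.14 ± 0.08 (adjusted p = 8.73e-10) for ID against I).

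Not all members that fell with CTCF came back with CTCFL. Ryr2, the calcium release channel of heart muscle, stood at 296, 253 and 423 in U and 11.2, 18 and 17.2 in I, and at 355, 279 and 434 in D and 8.74 and 8.04 in ID. The I and ID libraries lay far below U and D, and ID against I was −0.78 ± 0.33 (adjusted p = 0.0659). In the CTCF line it was 301 and 360.1 in U, 36.8, 20.4 and 16.8 in I and 3.62, 5.87 and 21.2 in ID. The neuronal RNA-binding gene Elavl4 (−4.96 ± 0.55 on depletion in the CTCF line) and the phosphatase gene Phlpp1 (−2.06 ± 0.18) also had no call in ID against I, with 0.19 ± 1.04 and −0.10 ± 0.26. The standard error of Elavl4 is large, so its missing call does not show that it failed to come back. Grik4, a kainate receptor subunit, came back in part, at 229, 262 and 202 in U, 14, 12 and 15.4 in I and 38.2 and 44.2 in ID.

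Some genes that were almost silent in U were among the largest rises with CTCFL. B3gat2, a glucuronyltransferase with its site 940 bp downstream of its start, stood at 4.04, 1.98 and 3.48 in U and 1.86, 2.99 and 0 in I, and at 138, 160.2 and 116 in D and 79.7 and 71.4 in ID of the CTCFL line. In the untreated CTCF line it stood at 102 and 66.3, so that the 2 clones differed before any treatment. D against U was 5.08 ± 0.62 (adjusted p = 1.78e-06). Col6a2, a collagen chain, rose at each step, from 68.7, 74.1 and 60.4 in U and 236, 280.4 and 194 in I to 786, 917 and 817 in D and 1672 and 1817 in ID. Its I libraries stood above U and its ID libraries above D.

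Ror1, a receptor related to tyrosine kinases, stood at 1.35, 0 and 4.64 in U and 1.86, 2.99 and 0 in I, at 106, 145 and 105 in D and at 10.9 and 1.01 in ID. It was therefore high only in D among these libraries, and the difference between its responses was −4.52 ± 1.4 (adjusted p = 0.0265), short of the threshold. Myh11, the smooth muscle myosin heavy chain, was high in both, at 12.1, 19.8 and 29 in U and 36.4, 28.9 and 23.5 in I, and at 313, 321 and 161 in D and 563 and 462 in ID. Add2, a subunit of adducin in the membrane skeleton, stood at 16.2, 19.8 and 20.9 in U and 72.7, 75.8 and 46.2 in I, and at 272, 335 and 285 in D and 396 and 415 in ID, with no overlap between the 4 conditions. The actin-binding gene Ablim3 changed by 3.98 ± 0.61 in D and 5.90 ± 0.68 in ID.

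Hic1, a transcriptional repressor, Cldn1, a tight junction protein, and Ly6k, a surface protein of germ cells, were highest in ID. Hic1 stood at 36.4, 9.88 and 15.1 in U and 13.1, 9.98 and 6.34 in I, and at 105, 125 and 97.4 in D and 337 and 328 in ID (5.00 ± 0.48 (adjusted p = 3.77e-08) for ID against I). Cldn1 stood at 9.43, 3.95 and 4.64 in U and 13.1, 7.98 and 5.43 in I, and at 73, 33.1 and 59.9 in D and 189 and 247 in ID. Ly6k stood at 31, 40.5 and 18.6 in U and 11.2, 16 and 9.96 in I, and at 186, 189 and 262 in D and 264 and 292 in ID. The U and I libraries lay below every library with CTCFL for each of the 3, and they overlapped for Hic1 and Cldn1 while Ly6k was lower in I than in U.

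Few members went down with CTCFL. Fosb, a subunit of the AP-1 transcription factor, stood at 265, 218 and 207 in U and 84.8, 86.8 and 89.6 in I, and at 30.6, 32.5 and 15 in D and 25.1 and 20.1 in ID of the CTCFL line. In the CTCF line it stood at 58.5 and 56.3 in U and 17.4, 17 and 10.1 in I, and at 81, 82.9 and 103 in D and 45.8, 58.7 and 40.9 in ID. Depletion lowered it in both lines, Dox lowered it further in the CTCFL line (−1.91 ± 0.36 (adjusted p = 2.04e-04) for ID against I) and raised it in the CTCF line (1.66 ± 0.25 (adjusted p = 1.70e-04)).

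Mettl25, a methyltransferase-like gene, stood at 404, 501 and 458 in U and 578, 481 and 555 in I, and at 209, 230.5 and 232 in D and 60.1 and 82.4 in ID. St8sia1, which makes the ganglioside GD3, stood at 972, 878 and 945 in U and 394, 366 and 316 in I, and at 314, 303 and 371 in D and 68.8 and 36.2 in ID. For both genes the ID libraries were lowest, and D against U and ID against I were both called lower. St8sia1 also fell in ID against I of the CTCF line (−1.66 ± 0.10 (adjusted p = 1.30e-07)).

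Other members were higher without CTCF. Ocel1, a gene with an occludin-like domain whose site lay 430 bp downstream of its start (chr8:71371331-71372220), stood at 124, 93.9 and 97.5 in U and 528, 778 and 780.1 in I, and at 702, 492 and 457 in D and 1551 and 1622 in ID. Both depletion and CTCFL were followed by higher RNA, and the U libraries lay below all others. Depletion raised it by 2.70 ± 0.17 (adjusted p = 3.79e-11) in this line, 2.86 ± 0.30 in the CTCF line, 2.74 ± 0.13 in the LCL line and 3.10 ± 0.19 in the CLC line. The response to CTCFL was smaller in depleted cells (−1.15 ± 0.25 (adjusted p = 2.70e-03)). Pear1, a receptor of platelets and endothelium, stood at 22.9, 24.7 and 29 in U and 231, 221 and 221 in I, and at 47.4, 79.2 and 71.2 in D and 149.6 and 218 in ID. Its D libraries lay between U and the depleted libraries. The neuropeptide precursor Vgf (2.04 ± 0.25) and the cytochrome gene Cyp1a1 (2.06 ± 0.17) were also higher on depletion in the CTCF line.

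The place of the site went with how often its gene was called. Members were grouped by the signed distance of their strongest site to the start. Over all genes tested, 3.94% were called higher in ID against I, 5.92% lower on depletion in the CTCF line and 3.76% higher in D against U. In ID against I, 121 of 472 genes with the site within 100 bp were called higher (25.6%), against 19.4% where it lay farther than that but within 250 bp upstream and 9.76% at the same distance downstream. Between 250 and 500 bp the shares were 9.62% upstream and 13.9% downstream. More than 500 bp away the shares were 5.46% upstream and 7.23% downstream. Genes called lower on depletion in the CTCF line were also most frequent within 100 bp, with 86 of 465 (18.5%), against 12.9% and 7.79% up to 250 bp upstream and downstream, 8.65% and 9% between 250 and 500 bp, and 5.02% and 5.29% more than 500 bp away. The shares did not fall steadily downstream in either comparison. In D against U, 9.96% of the genes with a site within 100 bp were called higher, 10.1% up to 250 bp upstream and 10.9% between 250 and 500 bp downstream, so the class within 100 bp was not the highest there.

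**Figure D4:**
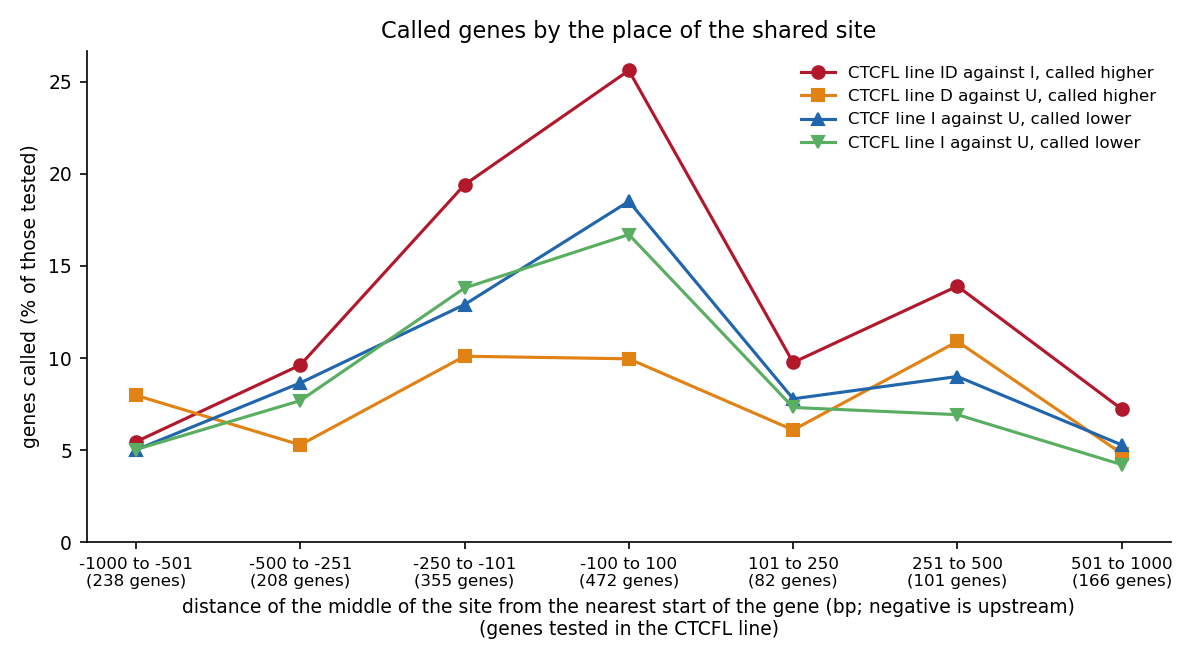
Percent of tested member genes called (vertical axis, linear, from 0) against the distance class of the site from the gene start in bp (horizontal axis, upstream to the left), for depletion (called lower) and CTCFL induction (called higher). The lines for ID against I of the CTCFL line (25.6%) and for I against U of the CTCF line (18.5%) peak in the class within 100 bp of the start, while that for D against U is flatter (9.96% there).

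Sites of the other classes near the start were set beside them by the closest site to each gene. Within 100 bp, 25.5% of shared, 11.3% of CTCF-only (7 of 62) and 5.42% of CTCFL-only genes were called higher in ID against I. On depletion in the CTCF line, 18.4% of shared, 25% of CTCF-only (14 of 56) and 7.68% of CTCFL-only genes were called lower there. In D against U the shares called higher were 9.89%, 1 of 62 and 7.10%. Of all genes tested, 3.94% were higher in ID against I, 5.92% lower on depletion in the CTCF line and 3.76% higher in D against U. The CTCF-only shares rest on few genes, and the shares were not tested against each other.

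Shares by peak strength are given as a description, since these peaks chose the members. From the weakest to the strongest of 4 classes of members by CTCFL strength, 8.48%, 9.75%, 18.3% and 23.1% of the genes were called higher in ID against I and 5.45%, 8.64%, 9.05% and 9.79% in D against U. By CTCF strength the shares in ID against I were 9.25%, 12.1%, 22.0% and 19.6%. Over all genes tested the shares called higher were 3.94% in ID against I and 3.76% in D against U.

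The strand of the 12-base pattern relative to the gene was another property that the choice did not use. Where it read on the strand of the gene, 119 of 532 genes were called higher in ID against I (22.4%), where it read on the opposite strand 36 of 371 (9.70%), and without a match 102 of 719 (14.2%). Within 100 bp of the start the shares were 33.9% (57 of 168), 18.7% (14 of 75) and 21.8%. Farther away they were 17.0%, 7.43% and 10.6%. The order in ID against I was the same near and far. On depletion in the CTCF line, 13.2%, 6.58% and 12.7% were called lower, against 5.92% of all genes tested. There the order differed, with 22.8%, 12.3% and 17.3% within 100 bp and 8.82%, 5.14% and 10.6% farther away, where genes without a match had the highest share. Where the third base of the match was G, 22.1% were called higher in ID against I, where it was C or T, 17.1%, and where it was A, 13.8%. Genes whose match lay in a repeat were called higher in 3.61% of 83, against 16.5% of the other 1539 members and 3.94% of all genes.

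**Figure D5:**
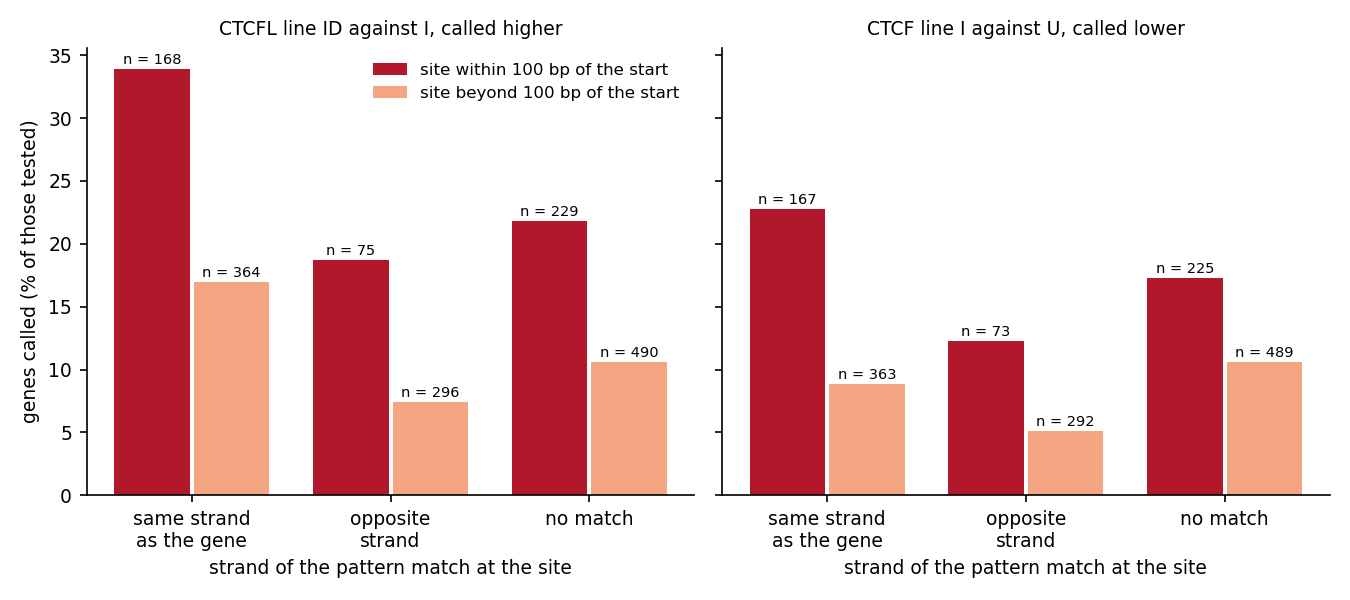
Percent of tested member genes called (vertical axis, linear, from 0) by whether the pattern reads on the strand of the gene, on the opposite strand or is absent from the window, split into sites within 100 bp of the start and farther away. Bars for the same strand stand above those for the opposite strand in both distance classes, at 33.9% and 18.7% within 100 bp for ID against I of the CTCFL line.

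Gene lists were chosen with earlier results of these data known, and their members are given as counts, with depletion meaning that in the CTCF line. Of 14 ribosomal protein genes at shared sites, 2 were called higher in ID against I (Rplp0 and Rpl36), with a median of 0.609, and none in D against U or on depletion in the CTCF line. On the whole list 3 were called higher in ID against I, and of all genes tested 3.94% were higher and 3.89% lower there. Rplp0 stood at 29096, 27408 and 27615 in U and 17558, 18257 and 18345 in I, and at 34603, 33232 and 32331 in D and 38935 and 40773 in ID, although processed copies of ribosomal genes make such counts uncertain. The I libraries were lowest and the ID libraries highest. Of 13 genes of mitochondrial complex I, 4 were called higher in ID against I, Ndufaf3, Ndufab1 and Ndufc1 among them, with a median of 0.758 (5 of 46 genes tested on the whole list), 1 lower on depletion in the CTCF line and none in D. Ndufaf3, an assembly factor, stood at 254, 226 and 276 in U and 28, 51.9 and 63.4 in I, and at 454, 299 and 367 in D and 411 and 308 in ID. Its I libraries lay below all others.

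Of 10 mitochondrial ribosomal protein genes, 2 were called higher in ID against I (3 of 79 on the whole list), and 1 was higher and 2 lower on depletion in the CTCF line (1 and 3 on the whole list). Of 24 Zfp genes, 4 were higher and 3 lower in ID against I, with a median of −0.36, 1 higher and 2 lower in D and 2 lower on depletion. On the whole Zfp list of 377 genes tested, 4 were higher and 32 lower in ID against I and 4 higher and 25 lower in D, so the 4 that were higher in ID against I were all members. Of 26 solute carriers, 4 were higher in ID against I, 3 higher in D, and 2 higher and 4 lower on depletion, where the whole list of 292 had 21 higher and 7 lower in ID against I and 19 higher and 6 lower in D, and 20 of 287 higher and 23 lower on depletion. Of 10 Rab GTPase genes, 1 was higher in each of ID against I and D against U and 2 were higher on depletion, and on the whole list of 67 the counts were 1, 1 and 7. Over all genes tested, 5% were called higher and 5.92% lower on depletion in the CTCF line. Among 3 kinesins 1 was higher in ID against I, Kif26a (1 of 36 on the whole list). The list took symbols that start with Kif and a digit, and so leaves out the kinesin gene Kifc3, also a member, which was called lower in ID against I (−1.73 ± 0.33, adjusted p = 2.66e-04), though not without replicate 1 of ID (−1.08). Each of these counts is small, and most members of each list were not called.

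No gene was called in these 3 comparisons among 7 proteasome, 6 aminoacyl-tRNA synthetase, 5 splicing, 5 DNA replication and 6 cohesin genes at shared sites, nor among 3 Hox genes or the pluripotency gene Tbx3. In the test of (ID − I) − (D − U), the cohesin subunit genes Stag1 (−1.15 ± 0.10) and Stag2 (−1.03 ± 0.11) were called, with log2 fold changes of 0.44 and 0.44 in D against U and −0.72 and −0.60 in ID against I. The 3 histone genes were below the minimum mean, and of 10 clustered protocadherins 2 or fewer passed it, with Pcdhga8 called lower on depletion and Pcdhga3 higher in ID against I. Of 3 germline and meiosis genes, Sycp2, part of the synaptonemal complex, rose in D (1.03 ± 0.17 (adjusted p = 5.78e-05)) and in ID (1.46 ± 0.19 (adjusted p = 2.31e-06)). The growth factor gene Tgfb1, 1 of 2 TGF-beta pathway genes, rose by 1.81 ± 0.15 and 2.26 ± 0.17. Jag2, the 1 Notch pathway gene, rose in D (1.03 ± 0.11 (adjusted p = 2.32e-07)), and Bbc3, 1 of 2 p53 targets, rose on depletion in the CTCF line (1.10 ± 0.09 (adjusted p = 6.97e-07)). Of 5 imprinted genes, Sgce fell on depletion (−1.42 ± 0.19 (adjusted p = 4.67e-05)) and was higher in ID against I (1.53 ± 0.23 (adjusted p = 1.85e-05)). Of 2 immediate early and heat shock genes, Fosb was called lower in all 3. On the whole lists, 6 of 28 germline and meiosis genes were called higher in D and 5 in ID against I, 1 of 24 TGF-beta genes in each, and 4 of 18 Notch genes in D. On depletion in the CTCF line 1 of 20 p53 targets was called higher and 2 of 33 imprinted genes lower, and 1 imprinted gene was higher in ID against I. Of 17 immediate early and heat shock genes, 3 were lower in D and 1 each in the other 2. Over all genes tested, 3.76% were called higher and 2.14% lower in D against U.

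Markers of the labelled cell type and of other cells were read beside these results. All 10 embryonic stem cell markers were expressed, with Dppa5a most abundant, and their summed values had medians of 187732 in U and 139725 in I, and of 137772 in D and 100838 in ID of the CTCFL line and 211529, 156653, 219417 and 145129 in the CTCF line. Of the 10, 1 was called lower in D against U, 2 in ID against I and 2 on depletion in the CTCF line. Of 5 markers of 2-cell-like cells, 3 passed the minimum mean, and 3 were called higher on depletion in the CTCF line and 2 in the CTCFL line. In ID against I, 1 was called lower. Their sum, led by Zscan4d and with Tcstv1 below 1, had medians of 63.3 in U and 275 in I, and of 58.5 in D and 95.9 in ID of the CTCFL line and 165, 548, 162 and 238 in the CTCF line. None of these genes is a member, and their part in the results was not tested.

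The summed levels of other marker lists also differed between conditions of the CTCFL line, in the same comparisons as the members. As medians over libraries in U, I, D and ID, primed epiblast markers (Otx2 the most abundant over all libraries) summed to 494, 245, 155 and 139.6 and neural markers (Tubb3) to 1553, 1655, 764 and 1021. Mesoderm markers (Kdr the most abundant) summed to 91.6, 91.4, 120.4 and 223, fibroblast markers to 960.1, 1206, 1377 and 2066, with Dcn below 1, and trophoblast markers (Krt7) to 553, 935, 713 and 1051. Primed epiblast markers were thus highest in U, and mesoderm, fibroblast and trophoblast markers highest in ID. The trophoblast marker Krt7 had means of 253, 606, 281 and 529, highest in I. Within the fibroblast list Thy1 had means of 664, 711, 538 and 1089, lowest in D, while Col1a1, a collagen gene that is itself a member, had 252, 479, 751 and 955. Germ cell markers had no gene called, with Dazl, itself a member, most abundant, and a median sum of 7305 in U and 10251 in ID of the CTCFL line. Primitive endoderm markers, which include the members Gata6 and Pdgfra, had none called. Of 5 trophoblast markers, Eomes was called higher in ID against I, Krt7 in depletion of the CTCFL line and 2 in depletion of the CTCF line. Of 4 fibroblast markers 1 was higher in D, the member Col1a1 (1.58 ± 0.12), and of 4 mesoderm markers, of which Mesp1 is a member and was below the minimum mean there, 1 was higher on depletion in the CTCF line, and of the neural and primed epiblast markers 1 each was lower in D, in ID against I and on depletion in the CTCF line. Their part in the results was not tested.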

How the data were processed

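Processed files of 122 samples were used as deposited, in part: 38 RNA-seq libraries, 32 FLAG and 16 RAD21 ChIP-seq libraries and Hi-C domain lists. The authors aligned RNA reads (poly(A), stranded) with STAR and deposited a signal per gene, normalised counts that they had divided by 1 size factor per library. Strand use in counting is not given in the sources used here, so reads of overlapping genes cannot be told apart. In all 38 libraries 100% of values of up to 500 reads were whole multiples of 1 step, within a tolerance of 0.1. Whole reads were recovered in 36, and not in replicate 2 of I and replicate 2 of ID of the CTCFL line, whose step lay near 1 and which were left out of the tests on reads. For ChIP-seq the authors used Bowtie2, kept unique reads without duplicates and called peaks per replicate with MACS (reads on GRCm38/mm10, per the labels). The −log10 q and fold enrichment values of the peaks are those that the authors deposited. Domain lists were deposited per line and condition, by the crane and hicratio methods, at 40 kb. IgG samples and 1 Hi-C condition were not analysed here.

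The test was limma (version 3.58.1, R 4.3.3, eBayes with trend) on log2(value + 1), in 1 fit per line, over genes with a mean of at least 10. Calls used the study's thresholds, 0.01 for the adjusted p (Benjamini-Hochberg) and 1 for the log2 fold change. Standard errors (±) are those of the fit. In edgeR 4.0.16 (quasi-likelihood) on recovered reads, 933 genes were called in D against U and 1470 in I against U of the CTCFL line and 1876 in I against U of the CTCF line, against 994, 1613 and 1824 by limma and 1091, 1590 and 1945 by DESeq2 1.42.0. The tests on reads thus held 2 I libraries and 1 ID library of the CTCFL line, where limma held 3 and 2. Their counts in I against U of that line therefore do not compare tools alone. Those in ID against I rest on 1 ID library and are not given. The tests were also run on simulated data, and no result given here rests on that. Overlaps of peaks with sites (at least 1 bp) were compared over libraries with exact sign-flip permutation tests in Python 3.11.15 (numpy 2.4.6, pandas 2.3.3, scipy 1.17.1). These tests took each library as independent, also where libraries came from the same line. Sequences and the pattern were read from GRCm38 with pysam 0.24.0.

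The sites, gene lists and tests were chosen with earlier results of these data known. Genes were named by rule: up to 10 with the largest called rise and fall per main comparison, without overlap between groups and with a mean of at least 50 in the higher group, genes called both on depletion in the CTCF line and in D of the CTCFL line, the 10 strongest sites, Ctcf, Ctcfl, Stra8 and members of the lists. Alternatives were other pseudocounts, filters, scalings, fits, site definitions and left-out libraries. Some loci are not reported here.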

Additional observations from a re-analysis of the deposited data

Results flagged for a closer look

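The response to CTCFL differed with and without CTCF, by a test of the difference itself (limma, (ID − I) − (D − U) in the CTCFL line), at 126 member genes (7.77% of those tested, against 2.71% of all genes). Among the genes named above the difference was positive on the log2 scale for Nkd2 (4.38), Prss41 (3.40), Ppa2 (2.69), Dennd6b (2.61), Hic1 (2.45), Ndufaf3 (2.40), Nudt17 (2.31), Adprhl2 (1.91), Pxylp1 (1.55), Rpl36 (1.33), Ndufab1 (1.24) and Tgm2 (1.17). It was negative for Mettl25 (−1.90), Pear1 (−1.62), St8sia1 (−1.31), Ocel1 (−1.15), Stag1 (−1.15), Stag2 (−1.03) and Bbc3 (−1.03).

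Depletion of CTCF acted differently in the CTCFL and CTCF lines, by the same kind of test, at 5 member genes (0.317% of those tested, below the 0.374% of all genes), none of which is among the genes above. The count moved with single libraries, and it was 8 without replicate 2 of I in the CTCFL line. B3glct, a glucosyltransferase, fell by less in the CTCFL line (log2 fold changes of −1.74 and −3.27, difference 1.53, adjusted p = 4.41e-04 by limma). Ehd2, a protein of caveolae, had 0.32 and 1.69 (difference −1.37). Map3k15, a kinase, had −2.72 and −1.58 (difference −1.13). Mthfd2, an enzyme of mitochondrial folate metabolism, had −0.54 and −1.57 (difference 1.03), and Tmem82 had 0.59 and −0.41 (difference 1.00). The lines are separate clones and were not randomised, so clone and transgene cannot be told apart.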

How the results depend on the processing

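Of the fits for named genes, 1308 kept their direction and side of the threshold under the alternatives tried, 60 kept their direction without passing it, and 0 reversed. The choice of members moved with its rule: an overlap above 66% of both sites left 1126 sites and 1257 genes, a window of 3 kb gave 3719 and 4466, and a minimum −log10 q of 10 for peaks gave 1410 sites. With 66% overlap the members called numbered 66 in D against U, 124 in I against U and 132 in ID against I of the CTCFL line, 126, 3 and 62 in I against U, D against U and ID against I of the CTCF line, 111 and 130 on depletion in the LCL and CLC lines and 63 for (ID − I) − (D − U). Over all genes tested, 5.90%, 9.58% and 7.83% were called in these comparisons of the CTCFL line and 10.9%, 0.455% and 5.06% in those of the CTCF line. The shares were 9.58% and 12.8% on depletion in the LCL and CLC lines and 2.71% for (ID − I) − (D − U). Without the number of members tested at this overlap, the counts give no share. In D against U of the CTCF line there were 5 members called, and 3 with a window of 500 bp, 12 with 3 kb, 3 with the stricter peaks, 12 without replicate 2 of the FLAG sets, 8 with CTCF D sites and 3 with a replicate block. On depletion in the CLC line a window of 3 kb gave 416, and the difference between lines gave 8 without replicate 2 of the FLAG sets. All of these settings but the replicate block change which sites enter, and the cause was not tested.

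The pattern was found at 39.8% of members within 50 bp of the summit and at 40.3% with G fixed at its ninth place. The RAD21 difference was 0.739 points with the 163 top-ranked peaks of every library (p = 3.05e-05 by the exact permutation test, the smallest it can give), and 5.6 without replicate 1 and −1.30 without replicate 2. The permutation test took libraries of the same line as independent. Added after the data were seen, D libraries alone gave 3.31, ID libraries alone 0.991 and libraries with at least 1000 peaks 2.57 for RAD21, and 22.4 (D alone) and 45.6 (ID alone) for the chimeras against CTCF-only sites. Leaving out each library in turn (a group left with 1 library is taken to vary like the others), members called ranged from 139 to 149 in D against U, 242 to 257 in I against U and 248 to 291 in ID against I of the CTCFL line, from 239 to 271, 0 to 7 and 120 to 130 in I against U, D against U and ID against I of the CTCF line, from 206 to 223 in the LCL and 183 to 300 in the CLC line, from 99 to 130 for (ID − I) − (D − U) and from 2 to 8 for the difference between lines.

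The labels do not say that replicate numbers pair the samples, and the correlation of same-numbered deviations ran from −0.62 to 0.409. In I against ID of the CTCF line all 3 pairs lay above 0.1 (0.282, 0.115 and 0.126), and with the replicate number as a block 126 members were called there, against 130 without. In no other comparison did every one of 3 pairs do so. With the block, 157, 254 and 277 members were called in D against U, I against U and ID against I of the CTCFL line and 254 in I against U of the CTCF line. All genes called in D against U of the CTCF line numbered 28 with the block and 76 without.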
